A study of Mus musculus with 36 samples.

Results

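Interferon-stimulated genes (ISGs) were followed through liver development with 9 genes: Isg15, Usp18, Irf7, Ifit1, Ifit2, Ifit3, Oas1a, Rsad2 and Irgm1. They were taken by symbol, and all 9 were present among the 21889 gene symbols of the expression table. RNA-Seq had been run on whole livers of male C57BL/6 mice at 12 ages, with 3 mice per age (36 mice), and levels are in FPKM (fragments scaled to transcript length and to the mapped fragments of the library). The youngest age was late gestation (GD17.5, Day -2 in the sample labels). Day 0 was sampled at birth before suckling and was followed by Days 1, 3 and 5. The ages of 10, 15 and 20 days came before weaning, which was at Day 21, and the last 4 were Days 25, 30, 45 and 60. No mouse carried a modified allele or received a treatment according to the labels. Day 60 served as the reference age, as it did in the study. Whole liver holds hepatocytes, blood-forming cells and immune cells together, and more cells of a type or more RNA per cell cannot be told apart in it.

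Cells that detect viral nucleic acid release type I interferons, which bind the receptor pair Ifnar1 and Ifnar2 and act through the kinases Jak1 and Tyk2 on a complex of transcription factors that includes Irf9. That complex binds a short DNA element in the promoters of ISGs, the interferon-stimulated response element (ISRE), whose core pairs GAAA repeats. Interferon gamma, made by T and NK cells, uses another receptor pair, and it is the chief inducer of the immunity-related GTPases such as Irgm1, which restrict intracellular bacteria and parasites. The liver makes blood cells before birth and is seeded with resident macrophages, the Kupffer cells.

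The promoter bases before the start site of the 6 genes with an ISRE-like core are shown because that core is a sequence feature that most of the 9 genes shared. The motif GAAANNGAAA was searched on both strands in the RefSeq windows of 300 bases (GRCm38.p6; 250 bases before to 50 after a start), and capitals mark its matches, which overlap in Isg15, Oas1a and Irgm1 and read as the reverse complement in Rsad2, Ifit3 and Ifit1. Each stretch was located by an exact match at a single place in NCBI37/mm9, the build of the expression table, and any base annotated as UTR was left off.
Isg15, chr4:155574928-155575087, minus strand: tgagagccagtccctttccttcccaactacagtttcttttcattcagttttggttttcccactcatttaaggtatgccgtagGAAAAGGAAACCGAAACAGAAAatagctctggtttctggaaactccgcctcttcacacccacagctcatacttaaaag
Oas1a, chr5:121357537-121357694, minus strand: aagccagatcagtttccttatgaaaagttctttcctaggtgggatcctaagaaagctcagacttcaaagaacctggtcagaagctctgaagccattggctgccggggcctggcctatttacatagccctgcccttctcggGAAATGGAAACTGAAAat
Irgm1, chr11:48684923-48685082, minus strand: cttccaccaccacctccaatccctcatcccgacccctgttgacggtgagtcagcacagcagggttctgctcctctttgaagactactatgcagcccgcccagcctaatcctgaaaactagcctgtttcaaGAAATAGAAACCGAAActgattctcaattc
Rsad2, chr12:27141318-27141477, minus strand: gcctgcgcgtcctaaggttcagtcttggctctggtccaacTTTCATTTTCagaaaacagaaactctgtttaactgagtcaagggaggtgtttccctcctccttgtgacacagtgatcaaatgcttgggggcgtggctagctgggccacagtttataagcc
Ifit3, chr19:34657859-34658018, plus strand: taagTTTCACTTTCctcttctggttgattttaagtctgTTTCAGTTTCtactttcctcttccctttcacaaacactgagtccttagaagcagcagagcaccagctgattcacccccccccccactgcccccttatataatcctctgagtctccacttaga
Ifit1, chr19:34715234-34715360, plus strand: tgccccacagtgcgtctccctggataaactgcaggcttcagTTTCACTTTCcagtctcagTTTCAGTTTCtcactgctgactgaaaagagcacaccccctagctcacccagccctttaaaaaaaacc
Isg15 held 3 matches, Oas1a, Irgm1, Ifit3 and Ifit1 held 2 each, and Rsad2 held 1. The first base of the match nearest to the start lay 14 bases before it in Oas1a, 24 in Irgm1, 66 in Isg15, 85 in Ifit1, 120 in Rsad2 and 122 in Ifit3. The windows of Irf7 and Ifit2 held no match, and Usp18 was not in the promoter table. Thus 6 of the 8 genes with a window had a match, against 3.44% of all 32851 windows. Of other type I ISGs, 14 of 37 genes had one, and of genes induced by interferon gamma, 10 of 15. These sets were counted by gene, with a match in any of its windows, whereas the 3.44% counts single windows, so the units differ. In the GENCODE annotation of that build the Irgm1 stretch also lies in an exon of a noncoding Irgm1 transcript. The other stretches overlap no exon once UTR bases are left off, which follows in part from that trimming.

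The livers stood as follows. Relative depth ranged from 0.891 to 1.34 between libraries, estimated from the spacing of low values, so that 1 FPKM stood for about 62.8 fragments of Isg15 and 347.9 of Rsad2. Hepatocyte markers (6 genes) summed to 7670 to 9220 FPKM in the GD17.5 livers and to 35500 to 78700 FPKM in all later ones. Erythroid markers (8 genes) were at 127000 to 185000 FPKM in the GD17.5 livers but only at 650 to 714 FPKM in those of Day 60. Neutrophil markers (8 genes) were between 3670 and 4110 FPKM at Day 0 and at most 2.61 FPKM at Days 45 and 60. In Day 0 mouse 1, skeletal muscle markers (6 genes) summed to 1140 FPKM against 4.3 and 4.5 FPKM in the other 2 mice of that age, and it had the lowest level of the 3 in 8 of the 9 ISGs. Pancreatic acinar markers (6 genes) summed to at most 2.2 FPKM in the GD17.5 livers and to 833, 506 and 5110 FPKM in Day 0 mice 1, 2 and 3. They were at 17000 FPKM in Day 60 mouse 1 against 0.353 and 1.64 FPKM in the other 2, and at 5730 FPKM in Day 20 mouse 2. Day 15 mouse 3 had 4420 FPKM against 391 and 344 FPKM, and Day 45 mouse 1 had 4010 FPKM against 1.42 and 0.686 FPKM. Among these mice, Day 0 mouse 3 had the highest level of its age in 6 of the 9 ISGs. Day 60 mouse 1 had the lowest in 7, Day 15 mouse 3 in all 9, Day 45 mouse 1 in 4 and Day 20 mouse 2 in 3. Day 20 mouse 1 stood apart in the opposite direction, as described below.

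Of the 9 genes, 7 had a mean of 1 FPKM or more at some age and were tested among 11149 genes by limma on log2(FPKM + 1), where fold changes of low genes come out too small. Of these 7, 6 differed from Day 60 at some age, and Irgm1 did not pass (adjusted p = 0.0937 over all ages together). That share is close to the background, since 90.7% of tested genes did so. Between GD17.5 and birth, when 41.4% of tested genes fell and 13.1% rose, all 6 of these genes rose.

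**Figure D1:**
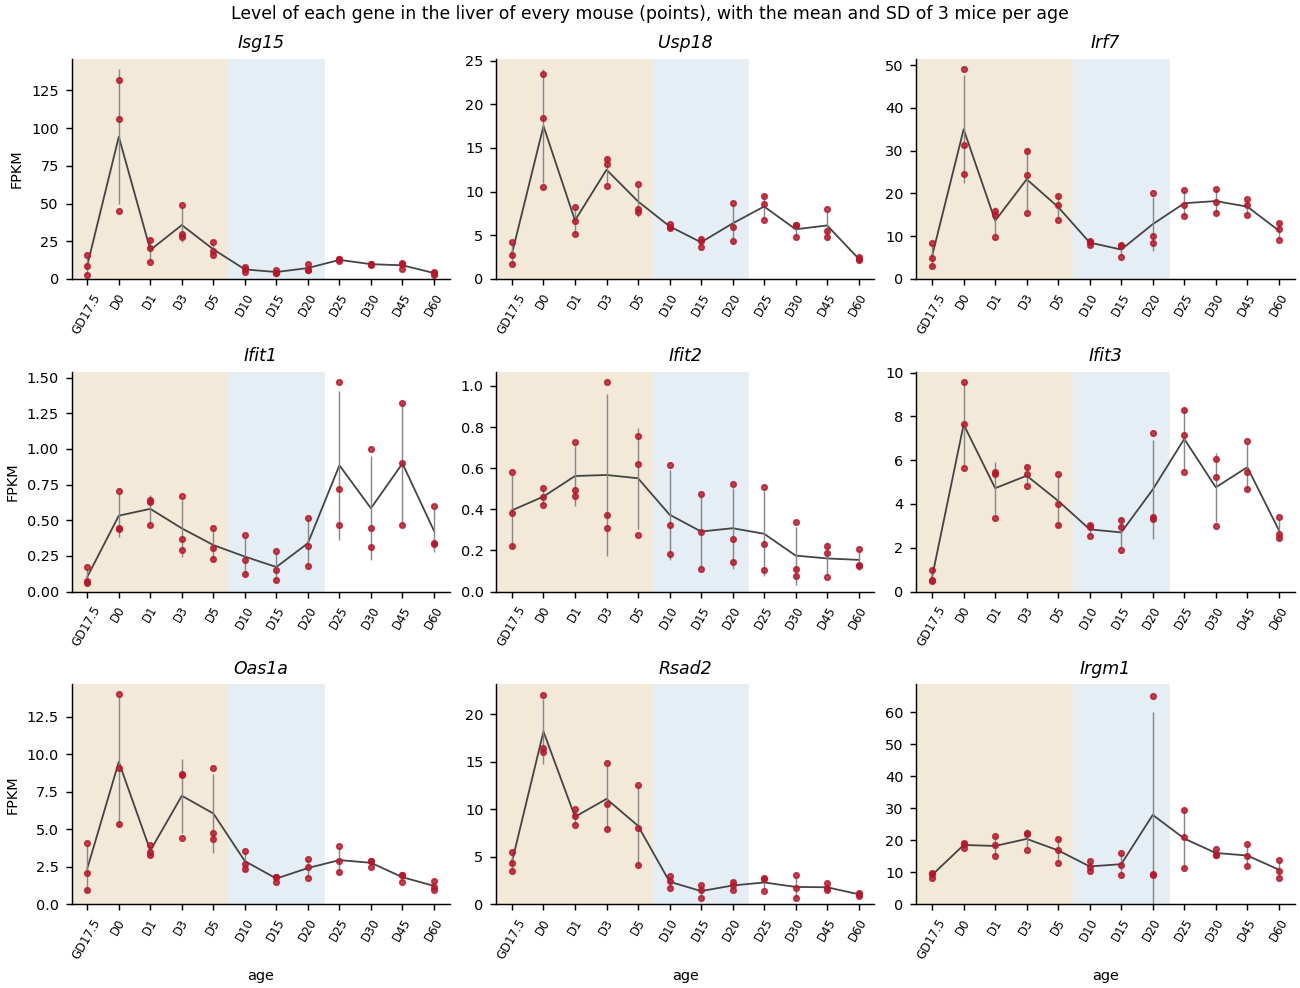
FPKM of each gene (vertical axis, linear from 0) against age (horizontal axis) in every mouse (points), with the mean (line) and SD (bars, n = 3; a bar that would reach below 0 ends there); shading marks perinatal (GD17.5 to Day 5) and pre-weaning ages (Days 10 to 20). Isg15, Usp18, Irf7, Ifit3, Oas1a and Rsad2 have their highest mean at Day 0, and the single high point of Irgm1 at Day 20 is 65.2 FPKM in mouse 1.

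Isg15 (chr4:155573533-155574927, minus strand in NCBI37/mm9) encodes a ubiquitin-like protein that is joined to other proteins in the antiviral response and is also secreted. The GD17.5 mice had 2.72, 15.7 and 8.39 FPKM, whereas the newborn (Day 0) mice reached 45.0, 132.0 and 106.0 FPKM. At Day 1 it was 11.4, 20.7 and 25.5 FPKM. Every mouse of Day 0 was above every mouse of GD17.5 and of Day 1. The difference was 3.38 on the log2 scale (SE 0.38, adjusted p = 3.91e-08, limma) from GD17.5 to Day 0, and Isg15 then fell by 2.17 (SE 0.38, adjusted p = 9.47e-05) to Day 1. The mean was 35.7 ± 11.5 FPKM (SD, n = 3) at Day 3, 19.6 ± 4.36 FPKM at Day 5 and 4.54 ± 1.43 FPKM at Day 15. Just after weaning (Day 25) it had 12.6 ± 0.612 FPKM, and its lowest mean was that of Day 60 (3.9 ± 0.901 FPKM). The highest age mean was 24.2 times the lowest, the widest range of the 9 genes.

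Usp18 (chr6:121195924-121220934, plus strand) encodes the protease that removes Isg15 from its targets and that also blocks signalling at the type I receptor, so it is a negative regulator of the pathway. Its levels were 1.76, 4.2 and 2.68 FPKM in GD17.5 mice, 10.5, 18.4 and 23.5 FPKM in Day 0 mice, and 5.18, 8.19 and 6.68 FPKM at Day 1. The Day 0 mice lay above all mice of either neighbouring age. Usp18 rose by 2.23 (SE 0.24, adjusted p = 1.36e-08), fell by 1.22 (SE 0.24, adjusted p = 0.000334) and rose again from Day 1 to Day 3 by 0.82 (SE 0.24, adjusted p = 0.0226), a step in which 8.22% of tested genes rose. It was the only one of the 7 tested genes above Day 60 at every age from Day 0 to Day 45. At Day 45 its 3 mice had 4.83, 8.03 and 5.5 FPKM, and at Day 60 they had 2.21, 2.27 and 2.45 FPKM. That last difference passed the test (1.08, SE 0.24, adjusted p = 0.042), which 0.0628% of tested genes did as a fall between these ages.

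Irf7 (chr7:148448605-148452380, minus strand) encodes the transcription factor that amplifies type I interferon production. Its mRNA was 2.97, 8.31 and 4.84 FPKM in GD17.5 mice, 24.6, 31.3 and 49.1 FPKM in Day 0 mice, and 9.89, 15.0 and 15.9 FPKM at Day 1. It rose by 2.53 (SE 0.29, adjusted p = 4.86e-08) and fell by 1.27 (SE 0.29, adjusted p = 0.00157). Irf7 had a further stretch of high levels in older mice. Its mean was 6.86 ± 1.56 FPKM at Day 15 and 16.9 to 18.2 FPKM over Days 25 to 45, and it ended at 11.3 ± 1.95 FPKM.

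Ifit1, Ifit2 and Ifit3 encode tetratricopeptide proteins that bind viral RNA or act with its binders, and they lie together on the plus strand (Ifit2 at chr19:34625184-34650909, Ifit3 at chr19:34658021-34663221 and Ifit1 at chr19:34715361-34724499). Only Ifit3 was high enough to be tested. The GD17.5 mice had 0.496, 0.987 and 0.529 FPKM, and the Day 0 mice 5.66, 7.64 and 9.57 FPKM. The rise was 2.36 (SE 0.24, adjusted p = 5.81e-09), and the Day 1 values of 3.35, 5.37 and 5.44 FPKM, all below those of Day 0, did not pass as a fall (difference -0.59, SE 0.24, adjusted p = 0.0599). The mice of Day 25 (6.97 ± 1.42 FPKM) overlapped those of Day 0 (7.63 ± 1.95 FPKM). Ifit1 stayed between 0.0619 and 1.47 FPKM in all 36 mice, with its highest mean at Day 45 (0.898 ± 0.427 FPKM). Ifit2 stayed between 0.0727 and 1.02 FPKM and was highest at Day 3 (0.567 ± 0.392 FPKM). Ifit1 was 0.103 FPKM on average at GD17.5, and each Day 0 mouse (0.448, 0.442 and 0.707 FPKM) was above each GD17.5 mouse, whereas the Ifit2 mice of these ages overlapped. Ifit3 shares reads with its near-identical copy I830012O16Rik, and Oas1a with Oas1g and its other neighbours, so their levels are uncertain where the counting could split such reads.

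Oas1a (chr5:121346265-121357536, minus strand) encodes a 2'-5'-oligoadenylate synthetase, which senses double-stranded RNA and switches on RNase L. It had 0.968, 4.06 and 2.11 FPKM in GD17.5 mice, 5.37, 9.08 and 14 FPKM in Day 0 mice, and 3.27, 3.95 and 3.48 FPKM at Day 1. It rose by 1.65 (SE 0.29, adjusted p = 2.85e-05) and fell by 1.12 (SE 0.29, adjusted p = 0.00447), and without Day 0 mouse 3 that fall did not pass (-0.81, adjusted p = 0.0588). The mice of Day 3 (7.23 ± 2.45 FPKM) overlapped those of Day 0 (9.49 ± 4.35 FPKM), and at Day 60 it was 1.22 ± 0.297 FPKM.

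Rsad2 (chr12:27127618-27141317, minus strand) encodes viperin, an enzyme that makes a chain-terminating nucleotide which stops viral RNA synthesis. Its levels were 5.5, 3.51 and 4.34 FPKM in GD17.5 mice, 16, 22.1 and 16.5 FPKM in Day 0 mice, and 9.99, 8.33 and 9.3 FPKM at Day 1. Rsad2 had every Day 0 mouse above every mouse of any other age. It rose by 1.82 (SE 0.29, adjusted p = 8.95e-06) and then fell by 0.90 (SE 0.29, adjusted p = 0.0197), a fall that did not pass with a pseudocount of 0.1 (adjusted p = 0.0689), with TPM scaling (adjusted p = 0.0947), without Day 0 mouse 2 (adjusted p = 0.0859) or without Day 1 mouse 2 (adjusted p = 0.0616). Rsad2 alone of the 7 was also above Day 60 at GD17.5 (1.40, SE 0.29, adjusted p = 8.89e-05). From Day 10 on its means lay between 1.05 and 2.37 FPKM.

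Irgm1 (chr11:48675470-48685185, minus strand), the GTPase gene, was the one tested gene that did not pass against Day 60 at any age with all mice in the fit. The GD17.5 mice had 9.49, 9.6 and 8.31 FPKM, and the Day 0 mice 17.4, 19.2 and 18.9 FPKM, with no overlap, yet the rise did not pass (0.94, SE 0.41, adjusted p = 0.0526). At Day 1 it stayed at 15.1, 21.2 and 18.4 FPKM. Its SE, which rests on the mice of all ages, was the largest of the 7, and its Day 20 mice had 65.2, 9.36 and 9.18 FPKM. Without Day 20 mouse 1 the same rise passed (0.94, SE 0.24, adjusted p = 0.00162), so that 7 of 7 tested genes rose at birth. It also passed without any one of 4 other mice of Days 20 and 25 (adjusted p = 0.0378 to 0.049) and with a pseudocount of 0.1 (adjusted p = 0.0497). Among its 12 age means no 2 neighbours in order of level were free of overlap between mice.

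**Figure D2:**
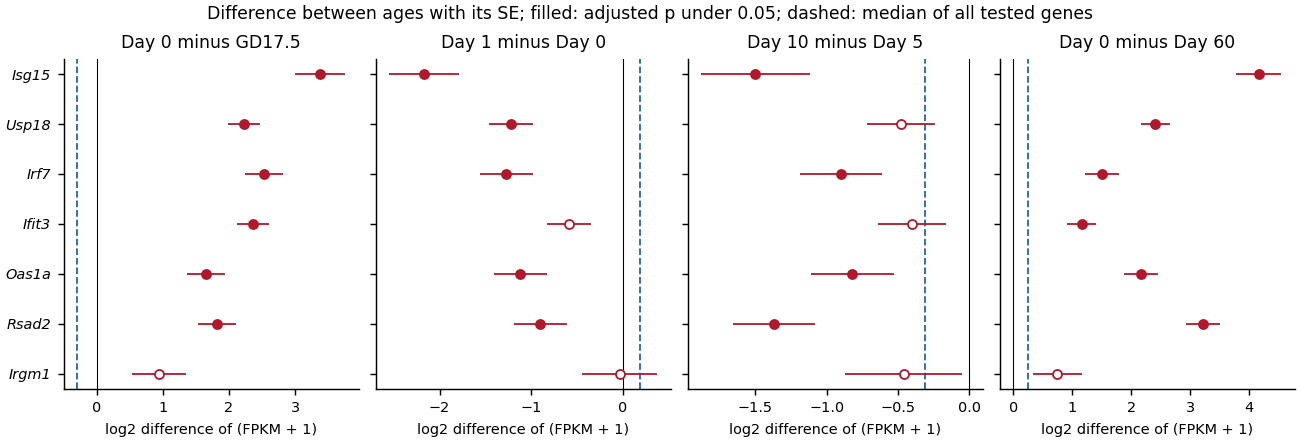
Differences of log2(FPKM + 1) with their SE (horizontal axes, one panel per comparison) for the 7 tested genes. Filled points passed the test (adjusted p under 0.05) and the dashed line is the median of all tested genes; all 7 lie right of that line in the panel of Day 0 minus GD17.5, with Isg15 at 3.38.

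Thus 6 of 7 tested genes rose between GD17.5 and Day 0, 5 of 7 fell between Day 0 and Day 1, where the background was 7.88%, and 4 of 7 fell between Day 5 and Day 10, where 34.4% fell. Over all 9 genes, 8 had every Day 0 mouse above every GD17.5 mouse, as did 15.9% of tested genes. The median of all tested genes moved by -0.29 from GD17.5 to Day 0, so the rises of the 6 genes relative to it were 1.94 to 3.67. Scaling each library to its upper quartile moved that median to -0.08 and the share of tested genes that rose to 20.1% and fell to 26%, and under it all 7 tested genes rose, by 1.18 to 3.59. The fall at Day 10 depended on scaling: Isg15 (-1.50, adjusted p = 0.00291), Rsad2 (-1.37, adjusted p = 0.000523), Irf7 (-0.90, adjusted p = 0.0163) and Oas1a (-0.82, adjusted p = 0.0276) passed in FPKM, and only Rsad2 passed with upper quartile scaling (-0.99, adjusted p = 0.0188), where 8.36% of tested genes fell. In the fall at Day 1, upper quartile scaling moved the split of all tested genes from 23.7% higher and 7.88% lower to 14.7% and 12%, and 6 of 7 ISGs then fell. In the other 6 steps no ISG passed in limma in either direction, and 5 of the 42 pairs of a gene and a step had an unadjusted p under 0.05.

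Against Day 60, 1 of the 7 genes was higher at GD17.5, where 56.4% of all tested genes were. At Day 0 it was 6 of 7 (43.6% of tested genes), a day later 5 (53.4%), and on Day 3 again 6 (55.7%). On Day 5 the number was 4 (56.9%) and by Day 10 it was 3 (35.3%). Days 15 and 20 had 1 each, beside 18.4% and 8.93% of tested genes. On Day 25 the number was 3 beside 4.18%, and Days 30 and 45 had 1 each beside 1.77% and 0.0628%. Both the number of these genes above Day 60 and the share of all tested genes were lower at Days 15 and 20 than from Day 0 to Day 5, and at Day 5 the 4 of 7 genes were close to the background. The number was not tested against the share. With upper quartile scaling the number was 4 on Days 1 and 3 (background 36.3% and 34.2%) and 2 on Day 10 (30.2%). The 2 of 7 genes on Day 10 were thus close to the background. On Day 25 the number was 4 (6.92%) and on Day 30 it was 3 (3.83%). It was as in FPKM for the remaining ages. Their background became 40.7% (GD17.5), 35.6% (Day 0), 33.3% (Day 5), 21.6% (Day 15), 14.1% (Day 20) and 0.0987% (Day 45). Without Day 60 mouse 1, the mouse of that age with pancreatic transcripts, 28 in place of 34 pairs of a gene and an age differed from Day 60. Again 6 of 7 genes were higher at Day 0. Without Day 20 mouse 1 all 7 were, Irgm1 included (0.75, SE 0.24, adjusted p = 0.00735). A pair of results went in the other direction, Ifit3 (-1.19, SE 0.24, adjusted p = 5.81e-05) and Irf7 (-1.02, SE 0.29, adjusted p = 0.00236) at GD17.5, where 18.6% of tested genes were lower. At Day 0 the differences from Day 60 ran from 1.16 for Ifit3 to 4.16 for Isg15, with Rsad2 at 3.22, Usp18 at 2.41, Oas1a at 2.17 and Irf7 at 1.51. Just after weaning, at Day 25, the 3 genes above Day 60 were Isg15 (1.49, adjusted p = 0.0123), Usp18 (1.48, adjusted p = 7.37e-05) and Ifit3 (1.06, adjusted p = 0.0043). Between Day 45 and Day 60 the mice of 5 of the 9 genes did not overlap and were lower at Day 60 (Isg15, Usp18, Irf7, Ifit3 and Rsad2), as were those of 2.32% of tested genes, and of these only Usp18 passed the test.

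The 3 age groups of the study gave a coarser view. From perinatal to pre-weaning ages 5 of 7 genes fell and none rose, 0 of 7 also by an unadjusted p under 0.05 in limma (background 61.2% lower, 14.6% higher): the differences were -1.89 for Isg15, -1.84 for Rsad2, -0.87 for Oas1a, -0.75 for Irf7 and -0.53 for Usp18. The median of all tested genes moved by -0.35, and with upper quartile scaling (median -0.02, with 35.1% of tested genes lower and 31.7% higher) the falls of Isg15 (-1.45), Rsad2 (-1.45) and Oas1a (-0.50) passed while Irf7 (-0.30, adjusted p = 0.0614) and Usp18 (-0.11, adjusted p = 0.399) did not. From pre-weaning to adolescent and adult ages, Irf7 (0.76, SE 0.16, adjusted p = 0.000147) and Ifit3 (0.45, SE 0.13, adjusted p = 0.00413) rose, against 12.4% of tested genes that rose and 44.9% that fell (18.6% and 37.4% with upper quartile scaling, under which Isg15 rose as well, by 0.57, adjusted p = 0.0214). Rsad2 did not follow them, with a difference of -0.10. From perinatal to adolescent and adult ages Rsad2 (-1.94), Isg15 (-1.46), Oas1a (-0.96) and Usp18 (-0.58) were lower and Ifit3 higher (0.27, SE 0.11, adjusted p = 0.0291), where 70.2% of tested genes were lower and 15.5% higher. The call on Ifit3 was lost without any one of 8 mice (adjusted p up to 0.0661). With upper quartile scaling (46.8% lower, 32% higher) Ifit3 was higher by 0.76 (adjusted p = 1.51e-07), Usp18 no longer passed (-0.04, adjusted p = 0.716), and Irf7 (0.60, adjusted p = 0.000136) and Irgm1 (0.50, adjusted p = 0.0193) were higher.

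The rest of the pathway was read from lists of its genes. Of 19 interferon ligand genes in the table none was high enough to be tested, 13 were listed at 0 in every mouse, and the highest single value was 0.14 FPKM, of Ifng. Of 6 receptor genes 5 were high enough to be tested, and Il28ra (Ifnlr1) stayed under 1 FPKM (0.169 FPKM on average at GD17.5). Ifnar2 had 47.1 ± 0.183 FPKM before birth (GD17.5) and 40.9 ± 11.8 FPKM just after it. At birth 3 of 5 tested receptor genes were lower beside 41.4% of all tested genes (Ifngr1, Ifnar1 and Ifngr2, differences -0.61, -0.60 and -0.47) and none higher (limma; 0 with an unadjusted p under 0.05). Of the 6 JAK-STAT transducers, Irf9 rose (1.18, SE 0.26, adjusted p = 0.000403), from 6.97, 10.8 and 7.32 FPKM to 14.2, 18.8 and 29.1 FPKM, and the kinase gene Jak2 fell by 1.44 (SE 0.28, adjusted p = 0.000104). The other 4 did not pass. Of 8 inhibitors of the pathway other than Usp18, 4 fell, a share near that background (Ptpn2, Pias1, Ptpn11 and Pias4, by 1.11, 0.68, 0.68 and 0.66) and none rose (limma; 1 of 8 with an unadjusted p under 0.05).

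Of other type I ISGs, 34 of 48 genes were tested, and 21 rose and none fell at birth (limma, 0 falls with an unadjusted p under 0.05). Their median difference was 0.75 against -0.29 for all tested genes, of which 13.1% rose and 41.4% fell. The largest rise was that of Ifitm3 (2.35, SE 0.26, adjusted p = 2.15e-08), a membrane protein that blocks virus entry, from 31.6, 62.9 and 40.0 FPKM to 225.0, 158.0 and 314.0 FPKM. Next came the oligoadenylate synthetase Oas3 (2.22), Ifi27l2a (2.21), Rtp4 (1.77), Oasl1 (1.76), Oasl2 (1.74) and the tetherin gene Bst2 (1.42). From Day 0 to Day 1, 14 of the 34 fell and 1 rose, beside 7.88% of tested genes that fell and 23.7% that rose. Of 14 tested nucleic acid sensors and adaptors, Dhx58 (1.37), Zbp1 (1.31) and Myd88 (0.25) rose at birth and Tbk1 fell by 0.77. These 3 rises of 14 were close to the background of 13.1%. Of 12 tested genes induced by interferon gamma, 4 rose at birth (Iigp1 2.16, Tgtp2 2.15, Ifi47 1.72 and Igtp 1.60), beside 13.1% of tested genes, and none fell. None of the 12 changed from Day 0 to Day 1, when 23.7% of tested genes rose and 7.88% fell. As falls at birth or as changes to Day 1, 0 of 12 had an unadjusted p under 0.05 in limma. Acute-phase proteins, which hepatocytes make in response to other cytokines, also moved at birth: 7 of 10 rose, beside 13.1% of tested genes, led by Apcs (4.01) and Hp (3.71).

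**Figure D3:**
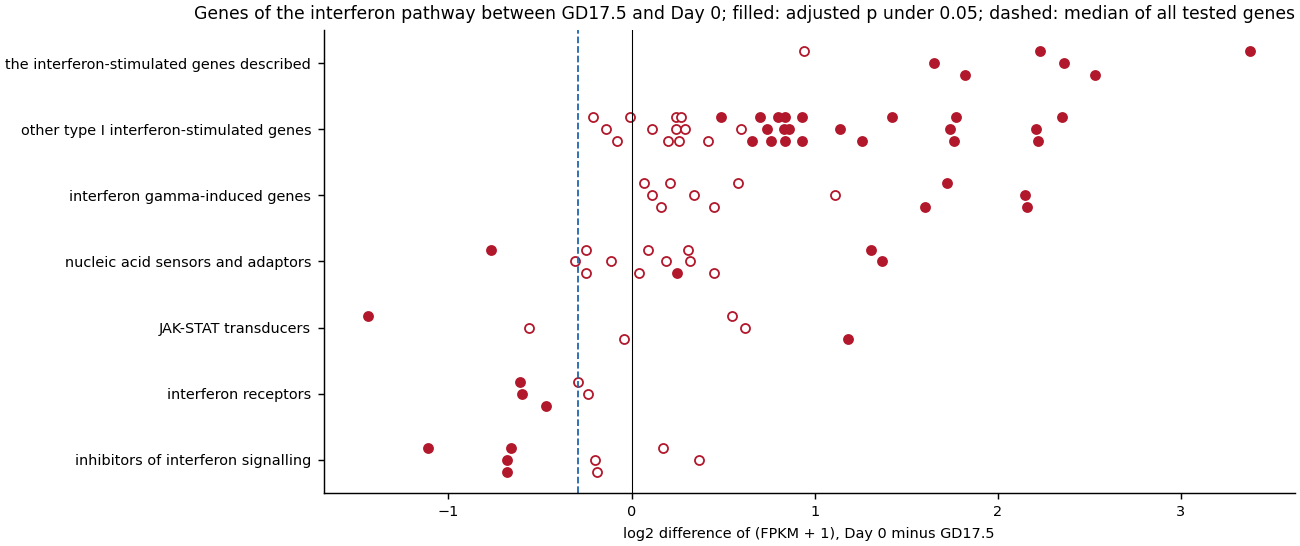
Difference of log2(FPKM + 1) between Day 0 and GD17.5 (horizontal axis) for every tested gene of each list (rows). Filled points passed the test and the dashed line is the median of all tested genes (-0.29); of other type I ISGs 21 points are filled and all lie right of 0, whereas the filled receptors and inhibitors lie left of it.

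At later ages the other ISGs differed from each other, as the 9 genes also did. Ifitm3 had its highest mean after weaning (600.0 ± 118 FPKM at Day 30) and rose from perinatal to pre-weaning ages by 1.39 (SE 0.13, adjusted p = 1.55e-10), in the direction opposite to Isg15. Bst2 rose over both transitions, by 0.70 and by 1.41 (adjusted p = 2.03e-05 and 7.63e-10). Isg20, an RNA exonuclease, had 75.4 ± 13.4 FPKM before birth and 1.63 ± 0.123 FPKM in Day 60 livers, and it fell by 2.97 over the first transition (SE 0.10, adjusted p = 1.36e-20). Ube2l6, the enzyme that conjugates Isg15, also fell there (-2.24), whereas the RNA helicase gene Mov10 fell mainly over the second (-1.19). Over the whole list, 20 of 34 fell and 4 rose from perinatal to pre-weaning ages (background 61.2% lower), and 7 fell and 9 rose after that (background 44.9% lower, 12.4% higher). Among the sensors Tmem173, which encodes STING, fell by 0.75 and Zbp1 rose by 1.11 over the first transition, and among the gamma-induced genes the largest changes then were Iigp1 (1.21, adjusted p = 0.00331) and Irf8 (-0.88, adjusted p = 7.04e-08), while the chemokine gene Cxcl9 rose over both (0.47 and 0.66). Without Day 20 mouse 1 the rise of Zbp1 was 0.85 and that of Iigp1 0.89 (adjusted p = 2.37e-05 and 0.0159). Upstream of the ISGs, the receptor gene Il10rb fell over both transitions (-0.98 and -0.62), as did the phosphatase gene Ptpn6 (-1.08 and -0.33). Ifngr1 fell over both as well (-0.38 and -1.14), the first of these turning to 0.06 with upper quartile scaling. Irf9, which had risen at birth, fell from perinatal to pre-weaning ages (-0.89) and rose again afterwards (0.45). Dhx58, a sensor of viral RNA, fell by 0.37 and then rose by 0.89. Of the acute-phase genes Saa1 rose over both (2.21 and 2.65), Orm1 over the second by 7.29, and Lcn2 fell by 3.09 and 1.71.

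The genes whose age profile was most like the mean of the 9 were Xaf1, Oas1g, Irf9 and Oasl2 (Pearson r over 12 age means 0.97, 0.93, 0.90 and 0.89), followed by Shisa5, Parp10, Cd72 and Ifi27l2a (0.88 to 0.87). Over the deviations of the 36 mice from their age mean, the nearest were I830012O16Rik (0.88), Xaf1 (0.87), Rtp4 and Dhx58 (0.80 each), then Irf9, Parp12 and Parp10 (0.78 to 0.77). These points share the libraries, their depth and their cell makeup, and the likeness of I830012O16Rik and Oas1g is partly built in, as they may share reads with Ifit3 and Oas1a. Among the 9 genes, each against the mean of the other 8 over age means, Usp18 (0.94) and Isg15 (0.92) were closest and Ifit2 (0.47) and Ifit1 (0.40), the lowest in level, were farthest.

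**Figure D4:**
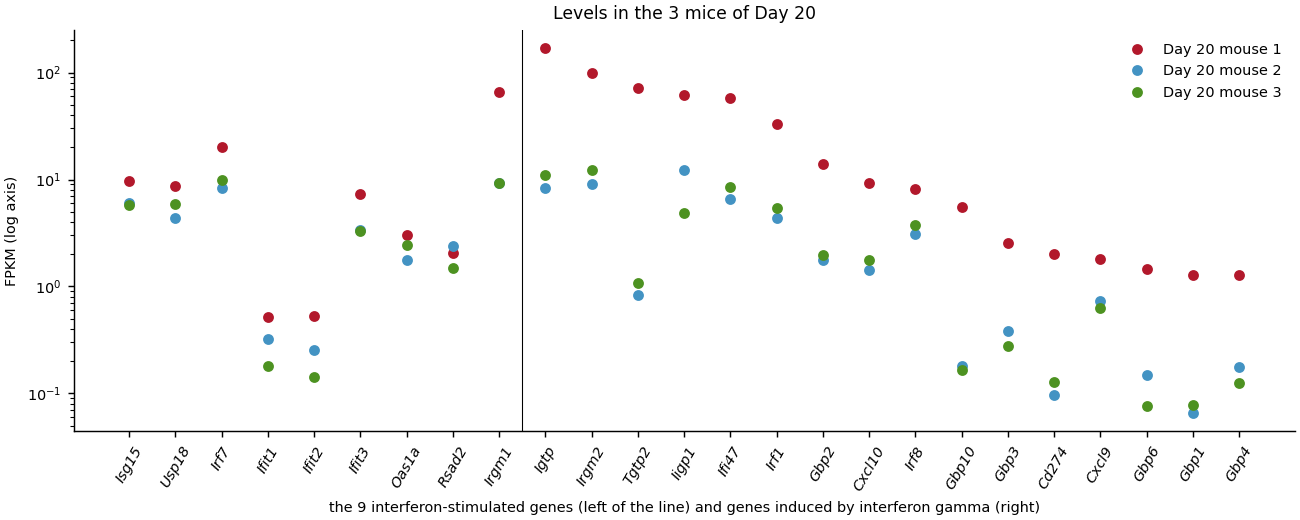
FPKM (log axis) in the 3 mice of Day 20 for the 9 ISGs (left of the line) and the genes of the interferon gamma list that reached 1 FPKM in one of them (right of the line). Mouse 1 is highest in 8 of the 9 ISGs, and its Igtp is 168 FPKM against 8.38 and 11 FPKM.

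Day 20 mouse 1 had the highest mean log2 deviation from its age mean of all 36 mice over the gamma list (1.70), and its deviation was 0.52 over the 9 ISGs. The former rests on the 12 tested genes of that list. A gene could pass the filter through its mean at any age, Day 20 with this mouse included. Irgm1 was 65.2 FPKM there against 9.36 and 9.18 FPKM, whereas Isg15 was 9.77 FPKM against 6.02 and 5.82 FPKM. Igtp and Irgm2, GTPases of the same family as Irgm1, had 168 and 99.5 FPKM, against 8.38 and 9.13 FPKM in mouse 2 and 11 and 12.3 FPKM in mouse 3. Tgtp2 had 71.0 FPKM against 0.84 and 1.08 FPKM. Ifng itself was listed at 0.0496 FPKM, against 0.00973 and 0.011 FPKM in mice 2 and 3, levels too low to be tested. It was higher in the mice of Day 3 (0.0708, 0.14 and 0.0805 FPKM) and Day 5 (0.0871, 0.104 and 0.0653 FPKM). The T and NK cell markers (8 genes, of which Cd3e, Klrb1c and Ncr1 were under 1 FPKM in every mouse) summed to 9.0 FPKM in this mouse and to 3.01 and 4.23 FPKM in the other 2, and their part in its levels was not tested. To a lesser degree Day 25 mouse 3 (gamma list 0.67, Irgm1 29.4 FPKM) and Day 15 mouse 2 (0.49, Irgm1 16.1 FPKM) were high. Without Day 20 mouse 1 (which leaves 2 mice at that age), Irgm1 and Ifit3 rose from Day 20 to Day 25 in limma (0.97, adjusted p = 0.0221, and 0.86, adjusted p = 0.0258). All 7 tested genes then passed as lower in pre-weaning than in perinatal ages. This mouse was singled out for its high levels, so leaving it out lowers the Day 20 means by design, and these calls add no support. In the fit of all mice the step to Day 25 was 0.07 for Irgm1 and 0.55 for Ifit3. Neither passed in limma (adjusted p = 0.963 and 0.193). With all mice, 3.94% of tested genes rose in that step and 61.2% were lower in that contrast of age groups. With all mice and upper quartile scaling, Irgm1 (0.26) and Ifit3 (0.18) did not pass in that contrast.

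**Figure D5:**
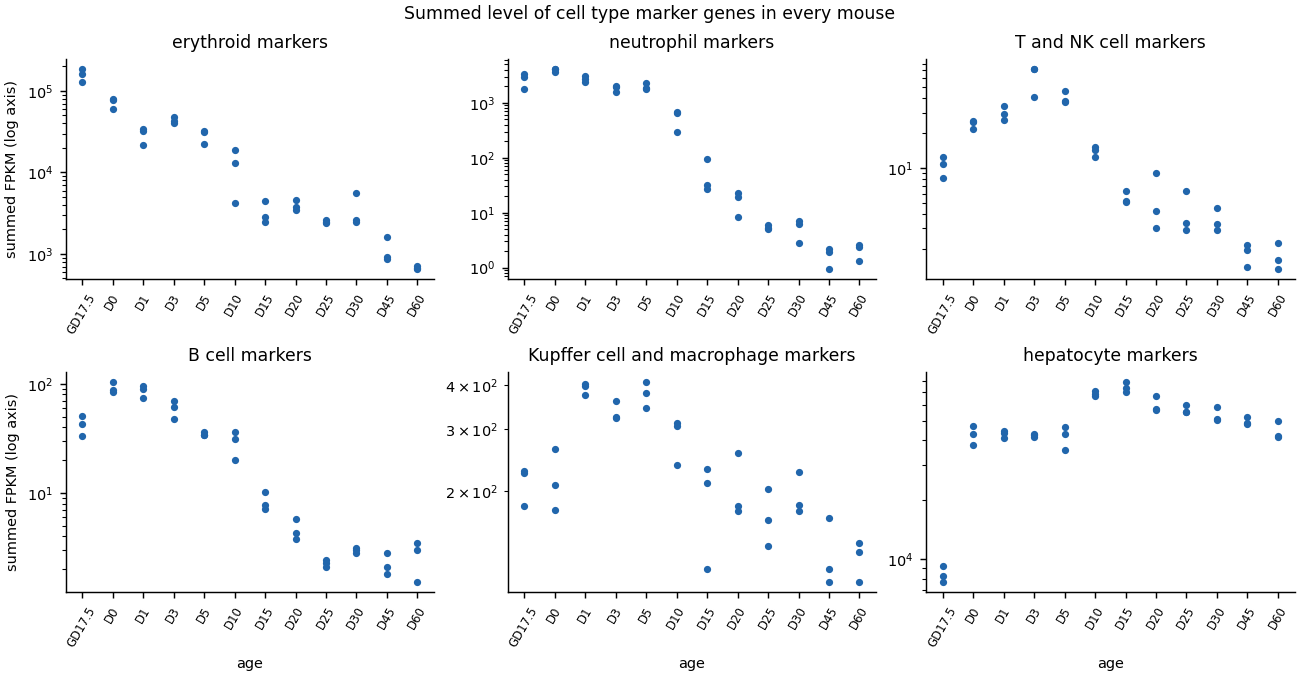
Summed FPKM of the marker genes of each cell type (vertical log axes) in every mouse (points) by age. Neutrophil markers are highest at Day 0 and fall by Day 15 to at most 96.5 FPKM, while Kupffer cell and macrophage markers stay between 111 and 407 FPKM.

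Markers of several cell types moved over the same ages as the 9 genes. Hepatocyte markers were at 7670 to 9220 FPKM in GD17.5 mice and at 38000 to 47100 FPKM in Day 0 mice, with no overlap. Erythroid markers went the other way, from 127000 to 185000 FPKM in GD17.5 mice down to 60100 to 80400 FPKM in Day 0 mice. Neutrophil markers were at their highest at Day 0, as were the age means of Isg15, Usp18, Irf7, Ifit3, Oas1a and Rsad2. These markers were at 1770 to 3390 FPKM before birth and at 1600 to 2050 FPKM at Day 3. B cell markers (7 genes) were at 33.4 to 50.5 FPKM in GD17.5 mice, at 84.8 to 104 FPKM in Day 0 mice and at 74.0 to 94.9 FPKM a day later. Kupffer cell and macrophage markers (10 genes) were at 177 to 263 FPKM at Day 0, close to the 182 to 228 FPKM of GD17.5, and at 373 to 403 FPKM at Day 1, when 5 of the 7 ISGs had fallen. T and NK cell markers were at 8.14 to 12.5 FPKM in GD17.5 mice and at 21.5 to 25.5 FPKM in Day 0 mice, with no overlap, and were highest at Day 3. Pancreatic acinar markers were also higher at Day 0 than at GD17.5 with no overlap. Plasmacytoid dendritic cells are a strong source of type I interferon, and of their 6 markers Siglech, Ccr9 and Pacsin1 were under 1 FPKM in every mouse. The 6 summed to 1.61 to 2.03 FPKM in GD17.5 mice and to 5.42 to 14.5 FPKM in Day 0 mice, with no overlap. That sum is a poor guide to these cells, as it was highest (31.7 FPKM) in Day 60 mouse 1, which had the most pancreatic transcripts. The part of these cells, and of pancreatic and muscle RNA, in the levels of the ISGs was not tested. Without Day 0 mouse 1, the mouse with muscle transcripts, the same number of ISGs rose at birth (6 of 7) and 6 of 7 fell at Day 1. Without Day 0 mouse 3, which had the most pancreatic transcripts of that age, 6 of 7 rose and 4 of 7 fell.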

How the data were processed

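Levels came from the FPKM table that the authors deposited, with 1 column per mouse. Per the study's methods and the labels, poly-A libraries (100-base paired reads) were aligned to NCBI37/mm9 with TopHat 1.2.0 and FPKM were estimated with Cufflinks 1.0.3 on Ensembl version 65 genes; a strand setting was not given in the sources used here. Each sample's group was its labelled age. The members and all gene lists were chosen with earlier results of these data known.

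The 11149 genes whose mean reached 1 FPKM at some age were tested on log2(FPKM + 1) by limma 3.58.1 in R 4.3.3, with 1 mean per age, all 36 mice and a mean-variance trend, in place of the authors' fit on FPKM. Contrasts were each age against Day 60, successive ages, and 3 age groups, each with Benjamini-Hochberg adjustment (threshold 0.05) over all genes tested; differences at any age were adjusted over all comparisons with Day 60 together. The code was tested on simulated data. P-values measure the spread between mice of the same age, with a shared estimate per gene over all ages. A mouse that stands apart at any age can therefore widen the SE of that gene in every comparison. The 3 mice of an age came from several litters. The labels do not tie replicate numbers to litters or batches, so no block was used.

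Named genes were all 9 members, and from each pathway list the 2 highest means and the largest rise and fall in each contrast of age groups; genes named at birth, at Day 1 or for Day 20 were chosen after their values were seen. Likeness used the 8 genes with the highest r, of which 1 is not reported here. Depth was estimated at about 74000000 to 111000000 fragments per library from the spacing of low values. Of these values, 70.0% lay within 0.1 of whole fragments, so no count test was run, and the estimates rest on the longest annotated transcript. All 9 symbols matched GENCODE M1, and 8 matched the RefSeq promoter table. Alternatives were a pseudocount of 0.1, no filter, a filter at 5 FPKM, upper quartile scaling, TPM scaling, a replicate block, no trend, and leaving out each mouse. Matching used Python 3.11.15 with pandas 2.3.3.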

Additional observations from a re-analysis of the deposited data

How the results depend on the processing

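The rise of 6 genes from GD17.5 to Day 0 (Isg15, Usp18, Irf7, Ifit3, Oas1a and Rsad2) passed under all 7 alternatives and without each mouse. Upper quartile scaling changed most: 3 in place of 5 members changed from perinatal to pre-weaning ages, 1 in place of 4 fell from Day 5 to Day 10, and Irgm1 became higher in adolescent and adult than in perinatal ages (0.50). It also turned the direction of other named genes. From perinatal to pre-weaning ages these became Ifnar2 0.33, Ifngr1 0.06, Mavs 0.39, Irf3 0.34, Rtp4 0.07, Mov10 0.03, I830012O16Rik 0.02 and Fgb 0.49. From perinatal to adult ages they became Ifnar2 0.46, Irf9 0.15, Ifi27l2a 0.39, Xaf1 0.14 and Fgb 0.63. A filter at 5 FPKM left fewer other pathway genes to test, so that 31, 21 and 35 changed in the 3 contrasts of age groups in place of 48, 33 and 58.

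Leaving out each mouse gave 2 to 4 members that fell from Day 5 to Day 10, with 2 only without Day 5 mouse 2. Oas1a, Rsad2 and Ifit3 each changed side of the threshold at Day 1 without single mice. Same-numbered mice of different ages deviated from their age means with a median r of 0.126 (range -0.68 to 0.829), against -0.048 between different numbers; not every pair was alike, and the numbers were not taken as pairing. With the replicate block, 36 in place of 34 pairs of a member and an age differed from Day 60 and 19 in place of 17 steps changed, and it made calls of Irgm1 at birth (adjusted p = 0.0493) and of Isg15 from pre-weaning to adult ages (adjusted p = 0.0372). With no filter, Ifit1 rose at birth (0.47, adjusted p = 0.0285, limma). In that fit Ifit1 was also higher at Days 25 to 60 than in pre-weaning (0.41, adjusted p = 0.000527) and in perinatal ages (0.26, adjusted p = 0.00436). Ifit2 was lower at Days 25 to 60 than in perinatal ages (-0.33, adjusted p = 0.00023). One FPKM stood for about 220.5 fragments of Ifit1 and 317.0 of Ifit2, so that their values under 1 FPKM rest on fewer fragments than that. Erythroid RNA, which takes part of every library's total, moved with age, and its part in the scaling was not tested.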
